A study of Homo sapiens with 12 samples.

Results

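Keratins, desmosomal proteins and tight junction proteins were followed in 2 triple negative breast cancer cell lines, Hs578T and MDA-MB-231, with and without the hyaluronan receptor CD44. The genes were chosen by name from these families and not by a threshold on measured values: 43 of the 58381 genes of the count table, made up of 7 type II keratins, 7 type I keratins, 4 desmosomal cadherins, 8 desmosomal plaque proteins, 8 claudins, 2 MARVEL proteins, 4 tight junction plaque proteins and 3 polarity proteins. RNA was measured in 12 libraries, 3 from CD44 WT and 3 from CD44 KO cells of each line. CD44 KO cells carried an inducible Cas9 (puromycin selected, switched on with doxycycline), were transfected with guides to exons 1 and 5 of CD44 and were sorted as live CD29+ CD44- cells. CD44 WT cells carried the same Cas9, received the transfection reagent without guides and were sorted by the same stains. All 4 groups were therefore sorted populations and not clones, and all were starved in low serum before RNA was taken. Nothing in the labels says whether libraries of the same group were grown separately, so the p-values measure the spread between these samples, which may be technical.

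Keratins are the intermediate filaments of epithelia, built from pairs of a type I and a type II protein. Desmosomes tie these filaments to the membrane: the cadherins DSG and DSC reach across to the next cell, and plakoglobin (JUP), plakophilins (PKP) and desmoplakin (DSP) form the plaque that holds the filaments. Tight junctions seal the space between cells through claudins and the MARVEL proteins occludin and tricellulin, which plaque proteins such as ZO-1 (TJP1) link to actin. Mesenchymal-like cancer cells have lost much of this equipment, and both lines belong to that class.

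Library totals ran from 10257586 to 19725543 counts. CD44 itself was at 507 ± 17.6 CPM (counts scaled to library size, SD, n = 3) in CD44 WT and 27.3 ± 2.06 CPM in CD44 KO cells of Hs578T, and at 362 ± 1.7 against 34.2 ± 5.4 CPM in MDA-MB-231. The mesenchymal-like label fitted the defining markers: VIM ranged from 3730 to 7260 CPM and CDH1, the epithelial cadherin, from 0 to 0.971 CPM over the 12 libraries. A gene was tested where it had more than 1 CPM in at least 2 libraries, which held for 31 of the 43 genes and for 15836 genes in all. Called means an adjusted p of at most 0.01 in the edgeR quasi-likelihood test with Benjamini-Hochberg adjustment over all genes tested.

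The first question was which of these genes the CD44 WT cells of each line expressed. Compared as TPM, a level per summed exonic length of the gene, the simple-epithelial keratins led in both lines. KRT18, the type I partner of KRT8, was at 496 ± 7.23 TPM in Hs578T and 691 ± 55.1 TPM in MDA-MB-231. KRT8 was at 327 ± 20.5 TPM in Hs578T and 194 ± 4.75 TPM in MDA-MB-231. KRT19, a type I keratin of simple epithelia, separated the lines, with 0.402 ± 0.161 TPM in Hs578T and 425 ± 7.31 TPM in MDA-MB-231. The order of KRT8 and KRT18 in Hs578T depended on the length used. Per kilobase of the reference transcript, an alternative chosen after seeing the data, KRT8 was at 320 ± 14.9 and KRT18 at 286 ± 5.76 CPM in Hs578T, while KRT18 stayed above KRT8 in MDA-MB-231 (447 ± 71.6 against 211 ± 18.4 CPM).

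**Figure D1:**
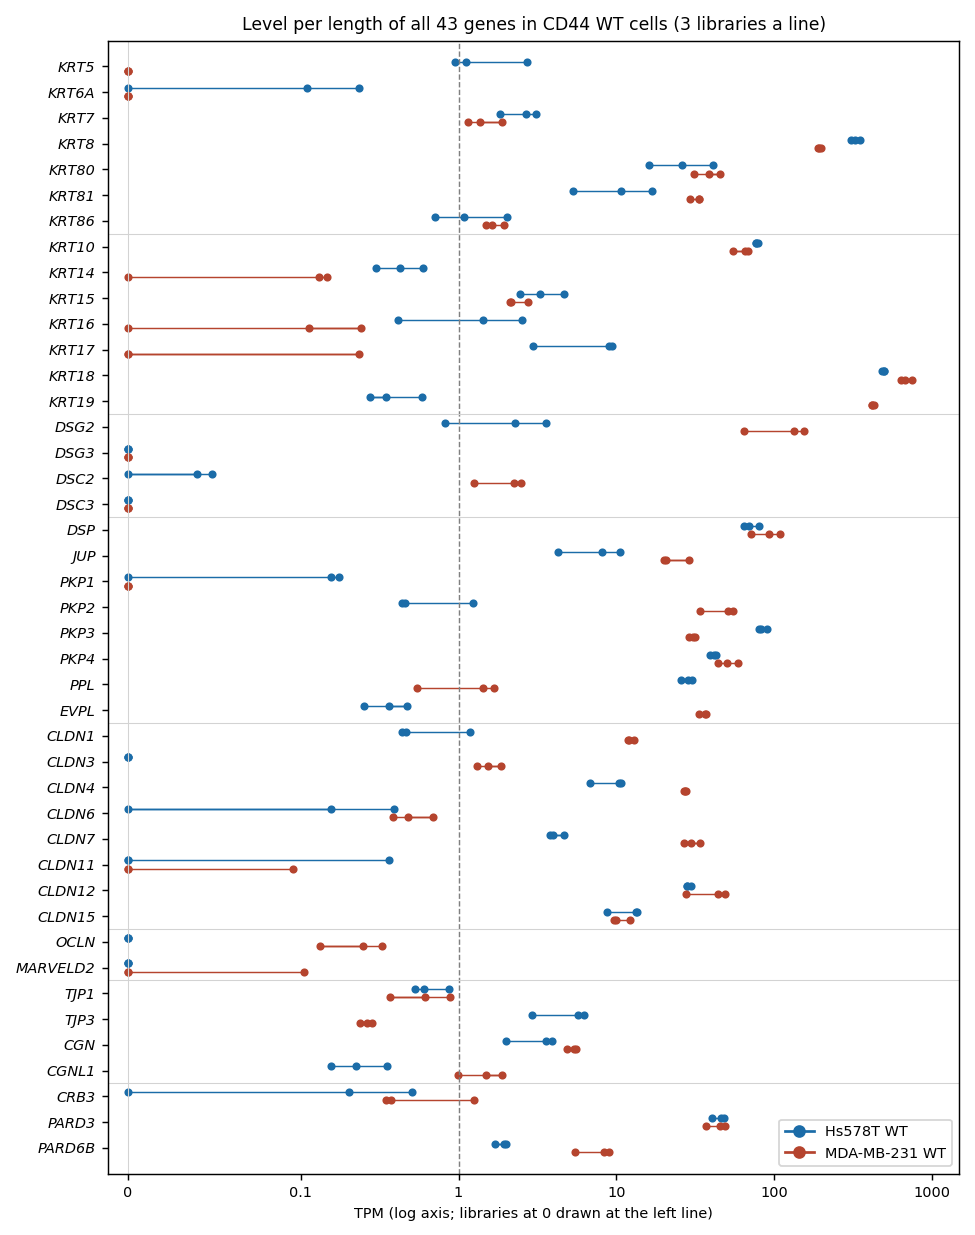
TPM (log axis) of all 43 genes in the 3 CD44 WT libraries of each line, 1 point a library, with the genes in the order of their roles and libraries at 0 drawn at the left line. KRT18 and KRT8 lie far to the right in both lines, while KRT19, EVPL, DSG2 and PKP2 are high only among the MDA-MB-231 points and PPL only among the Hs578T points.

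RNA of desmosomal plaque genes was found in both lines, with some genes shared and others low in 1 line. DSP, which anchors keratin filaments, was at 71.5 ± 7.69 TPM in Hs578T and 91.6 ± 19.6 TPM in MDA-MB-231. JUP was at 7.65 ± 3.19 TPM in Hs578T and 23.2 ± 4.86 TPM in MDA-MB-231. Of the plakophilins, armadillo proteins of the plaque, PKP4 was at 41.1 ± 1.69 TPM in Hs578T and 51.2 ± 7.62 TPM in MDA-MB-231. PKP3 was at 84.3 ± 5.41 TPM in Hs578T and 30.3 ± 1.24 TPM in MDA-MB-231, and PKP2 at 0.706 ± 0.451 against 46.6 ± 11 TPM. The plakins periplakin (PPL) and envoplakin (EVPL) went opposite ways, PPL with 28.1 ± 2.25 TPM in Hs578T and 1.22 ± 0.603 TPM in MDA-MB-231, and EVPL with 0.362 ± 0.11 against 35.7 ± 1.96 TPM. The cadherin DSG2 was at 2.23 ± 1.38 TPM in Hs578T and 118 ± 47.3 TPM in MDA-MB-231. DSG3 had no count in any of the 12 libraries.

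Claudins, the strands of the tight junction, were mostly higher in MDA-MB-231. CLDN12 led the 8 in Hs578T with 28.7 ± 0.876 TPM. In MDA-MB-231 CLDN12 with 40.2 ± 11.1 TPM, CLDN7 with 30.3 ± 3.5 TPM and CLDN4 with 27.2 ± 0.341 TPM could not be ordered beyond their spread. CLDN7 and CLDN4 were lower in Hs578T, at 4.13 ± 0.453 and 9.32 ± 2.18 TPM. CLDN1 was at 0.695 ± 0.421 TPM in Hs578T and 12.3 ± 0.57 TPM in MDA-MB-231. CLDN15 was at like levels, 11.9 ± 2.74 and 10.7 ± 1.43 TPM.

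Between CD44 WT cells of the lines, 17 of the 31 tested genes were lower in Hs578T, 6 were higher (KRT5, KRT8, KRT17, PKP3, PPL, TJP3) and 8 were not called, beside 61.5% called among all genes tested (29.4% lower and 32.2% higher). These calls compare the cultures at hand, since no line was replicated as a line. KRT19 had the largest fitted difference of the lower ones, with a log2 fold change of -10.16 ± 0.21 (SE, adjusted p = 1.7e-14). EVPL was lower as well, with -6.79 ± 0.19 (adjusted p = 1.6e-13), and so was PKP2, with -6.11 ± 0.27 (adjusted p = 1.7e-10). DSC2, the only desmocollin above the filter, had 2 counts over the Hs578T libraries and 243 over those of MDA-MB-231, a ratio of 132 (95% interval 36.3 to 1100). Intervals and floors of this kind cover counting error only. Of the genes higher in Hs578T, the basal keratin KRT5 had 70 counts against 0, which is at least 21.4-fold higher at a floor of 3 counts over the group. KRT5 passed the filter only through the Hs578T WT libraries, where it was high, so nothing is drawn from its call. KRT17, a keratin of basal and wound-edge epithelium, had 181 counts against 2, a ratio of 83 (95% interval 22.7 to 691).

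Some low values cannot be read as low expression. Reads that aligned to several places were not counted, so 50-base windows of each transcript were looked up on the alternate contigs of GRCh38 and in other genes. For OCLN 89% of its windows, for MARVELD2 91.1% and for TJP1 80% also lay on alternate contigs. These 3 genes had at most 8, 2 and 30 counts in a library. NSF, KANSL1 and TAPBP, broadly expressed genes with the same property (76.3%, 88.1% and 90.7% of windows) and chosen after their values were seen, had at most 1, 2 and 1 counts in any library. Whether the index used by the authors held these contigs is not given in the sources used here, and no level of OCLN (occludin), MARVELD2 (tricellulin) or TJP1 (ZO-1) is drawn from these counts.

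Within the keratins, KRT81 shared 44.6% of its windows with other genes, 38.4% with KRT86 alone, and KRT86 shared 39.9%. The shares were 39.2% for KRT8 and 35.3% for KRT18, through their pseudogenes, and 17.4% for KRT17. Single windows were looked up while reads were paired, so how far the shared parts entered the counts of these keratins was not tested.

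The main question was which of these genes changed when CD44 was lost, taken for each line in turn. In Hs578T CD44 KO cells 7 of the 31 tested genes fell and 1 rose, beside 7.51% called among all genes tested (3.86% lower and 3.64% higher). The genes that fell were the keratins KRT80, KRT81 and KRT17, the desmosomal DSG2 and PKP2, and the tight junction genes CLDN4 and TJP3. CLDN1 was the gene that rose. In RNA of a population, fewer expressing cells and less RNA per cell cannot be told apart. The median log2 fold change of the 31 was -0.38, also with PKP2 at its bound, against 0 over all genes tested. In MDA-MB-231 CD44 KO cells 3 fell (PKP3, CLDN1, PARD6B) and 2 rose (KRT81, PARD3), beside 4.62% called among all genes (2.65% lower and 1.97% higher), and the median was -0.12 against -0.01. Of the 11 genes called in either line, CLDN1 and KRT81 were called in both, each in opposite directions.

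**Figure D2:**
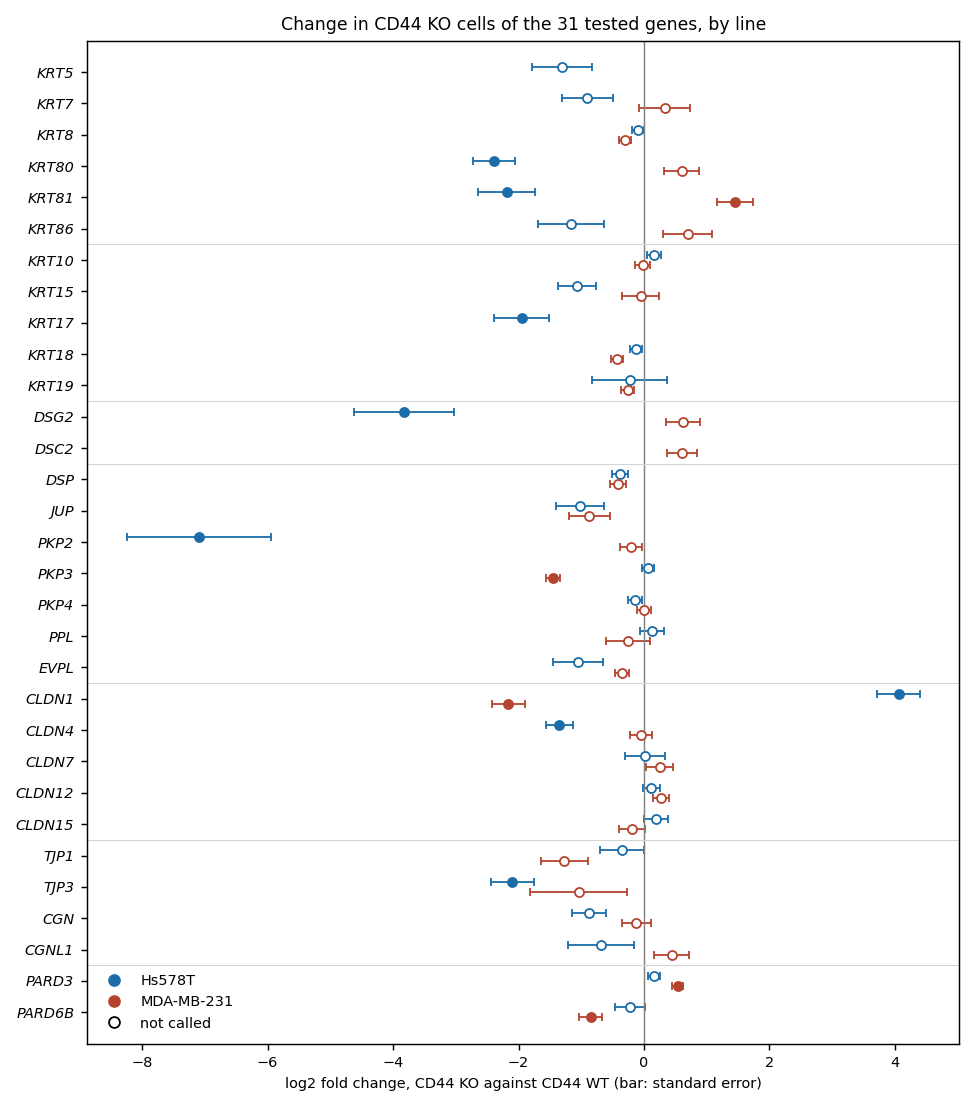
Log2 fold change of CD44 KO against CD44 WT with its standard error for the 31 tested genes in Hs578T (blue) and MDA-MB-231 (red), filled where called, with no point where both groups had at most 3 counts. CLDN1 lies at 4.06 in Hs578T and -2.16 in MDA-MB-231, and the point of PKP2 in Hs578T, at -7.10, depends on the prior count because its KO libraries had no count.

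Among type II keratins, KRT80, a keratin of differentiating epithelial cells, had 45.7, 28.9 and 17.4 CPM in the CD44 WT and 7.14, 3.21 and 7.76 CPM in the CD44 KO libraries of Hs578T. All KO values lay below all WT values, and the log2 fold change was -2.39 ± 0.34 (SE, adjusted p = 0.00022). In MDA-MB-231 its WT libraries had 41.6, 54.1 and 44.7 CPM and its KO libraries 56.6, 64.4 and 92.7 CPM. There the KO values were the higher ones without overlap, but the change of 0.60 ± 0.29 did not pass the test (adjusted p = 0.22). The change differed between the lines by -2.99 ± 0.45 on the log2 scale (Hs578T minus MDA-MB-231, adjusted p = 0.00058).

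KRT81, a hair keratin also seen in breast cancer cells, moved in opposite directions. Hs578T WT libraries had 8.32, 5.26 and 2.54 CPM and KO libraries 1.6, 0.863 and 1.19 CPM. MDA-MB-231 WT libraries had 20, 17.6 and 15.1 CPM and KO libraries 31.2, 45.2 and 67.9 CPM. Neither line had overlapping groups, and KRT81 fell by 2.19 ± 0.45 on the log2 scale in Hs578T (adjusted p = 0.0042) and rose by 1.45 ± 0.29 in MDA-MB-231 (adjusted p = 0.0049). The difference between the changes was -3.63 ± 0.53 (adjusted p = 0.00051). It stayed called without any 1 of the 12 libraries. The call in Hs578T was lost without WT replicate 1 or 2 or without any KO library, where the adjusted p reached 0.0345. The call in MDA-MB-231 was lost without 4 of its 6 libraries (WT replicate 3, the WT library with no number, KO replicates 2 and 3), where it reached 0.0239. KRT86, the near copy that shares windows with KRT81, had 18, 8 and 5 counts in the Hs578T WT and 6, 4 and 4 in the KO libraries, with log2 fold changes of -1.17 ± 0.53 in Hs578T and 0.70 ± 0.39 in MDA-MB-231, neither called. KRT80, KRT81 and KRT86 lie close together on chromosome 12. The 20 tested neighbours of KRT80 and of KRT81, sets that overlap, had medians of -0.16 and -0.19 in Hs578T, with 14 negative in each. In MDA-MB-231 both medians were 0. The part of the region in these changes was not tested.

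The other type II keratins were not called in either line. KRT8 changed by -0.10 ± 0.10 in Hs578T and -0.30 ± 0.10 in MDA-MB-231 (adjusted p = 0.067), on 517 to 596 and 270 to 412 CPM. KRT7, of simple glandular epithelium, lay between 1.10 and 3.85 CPM, with -0.90 ± 0.40 in Hs578T and 0.33 ± 0.41 in MDA-MB-231. KRT5 had 43, 15 and 12 counts in Hs578T WT and 6, 12 and 11 in KO libraries, a log2 fold change of -1.30 ± 0.48 (adjusted p = 0.10), and no count in MDA-MB-231. KRT6A, a keratin of activated keratinocytes, had 3 counts in all.

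Of the type I keratins only KRT17 was called. Its Hs578T WT libraries had 6.10, 5.84 and 1.86 CPM and its KO libraries 0.722, 1.17 and 1.71 CPM. The lowest WT library lay just above the highest KO library, and KRT17 fell by 1.95 ± 0.44 on the log2 scale (adjusted p = 0.0073). This call was lost without WT replicate 1 or 2, without any KO library, and without KO replicate 2 of MDA-MB-231, with an adjusted p of at most 0.0464. KRT17 in MDA-MB-231 had 2 counts over the WT and 2 over the KO libraries, so no change could be read there.

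KRT18 stood at 414, 401 and 399 CPM in Hs578T WT and 378, 357 and 386 CPM in KO libraries. In MDA-MB-231 it had 745, 596 and 552 CPM in WT and 469, 469 and 470 CPM in KO libraries. KO lay below WT in both lines, by -0.12 ± 0.10 in Hs578T (adjusted p = 0.49) and by -0.43 ± 0.10 in MDA-MB-231, where the adjusted p of 0.01002 missed the threshold. KRT19 had 2 to 4 counts a library in Hs578T, and in MDA-MB-231 268 to 303 CPM in WT and 192 to 258 CPM in KO libraries (-0.26 ± 0.11, adjusted p = 0.15). KRT15, a basal keratin, was lower in every Hs578T KO library than in any WT library (2.40 to 3.45 against 4.32 to 8.46 CPM), with -1.07 ± 0.30 and an adjusted p of 0.025. KRT10, of differentiated epidermis, lay between 32.0 and 51.3 CPM in all libraries, with 0.16 ± 0.12 and -0.02 ± 0.12. KRT14 and KRT16, of basal and activated keratinocytes, were below the filter, with at most 5 and 23 counts a library.

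Among the desmosomal cadherins, DSG2, the desmoglein of simple epithelia, nearly left the Hs578T libraries. It had 82, 44 and 15 counts in the WT libraries and 0, 10 and 0 counts in the KO libraries, which is 5.69, 3.62 and 1.27 against 0, 0.617 and 0 CPM. Its fitted log2 fold change was -3.83 ± 0.80 (adjusted p = 0.0044), and the call was lost without WT replicate 1 or 2 or KO replicate 1 or 3 (at most 0.0308). In MDA-MB-231 DSG2 was abundant and went the other way, with 123, 226 and 257 CPM in WT and 303, 328 and 297 CPM in KO libraries. No KO library overlapped with WT there, but the change of 0.62 ± 0.27 was not called (adjusted p = 0.19). The 20 tested neighbours of DSG2 in the genome had medians of 0.37 in MDA-MB-231, 5 of them negative, and -0.01 in Hs578T. The part of the region in the change of DSG2 was not tested. The difference between the lines was -4.44 ± 0.84 (adjusted p = 0.0035), and it was lost without the same 4 Hs578T libraries (adjusted p up to 0.0186). DSC2 had 4.80 to 8.43 CPM in MDA-MB-231 WT and 8.64 to 12.2 CPM in KO libraries (0.61 ± 0.24, adjusted p = 0.14) and at most 2 counts in any Hs578T library. DSC3, like DSG3 a cadherin of stratified epithelia, had 1 count in all.

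The plaque gene PKP2 had 32, 10 and 9 counts in the Hs578T WT libraries and none in the 3 KO libraries. With 51 counts against 0 it was at least 17.9-fold lower (adjusted p = 0.0010). In MDA-MB-231 it had 74.0, 98.1 and 103 CPM in WT and 90.5, 78.0 and 69.9 CPM in KO libraries, which overlapped (-0.20 ± 0.18, adjusted p = 0.53). The difference between the lines was called (adjusted p = 0.0032), and was lost without Hs578T KO replicate 2 or 3 (adjusted p up to 0.014).

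PKP3 fell in MDA-MB-231 alone. Its WT libraries there had 36.7, 29.9 and 30.9 CPM and its KO libraries 10.8, 11.8 and 13.1 CPM. The groups were far apart relative to their spread, and PKP3 fell by 1.45 ± 0.11 on the log2 scale (adjusted p = 7.2e-07). In Hs578T it had 77.9, 79.8 and 85.1 CPM in WT and 86.2, 83.1 and 85.7 CPM in KO libraries (0.07 ± 0.09, adjusted p = 0.69). The difference of 1.52 ± 0.14 between the lines was called (adjusted p = 9.3e-06). PKP3 lies at chr11:392614-404908, on the plus strand of the same chromosome arm as CD44. Of the 225 tested genes on the telomeric side of CD44, 198 had a negative log2 fold change in MDA-MB-231, with a median of -0.57, against a median of 0.08 in Hs578T. The 20 tested genes next to PKP3 had medians of -0.80 and 0.15. PKP3 was lower than that surrounding level, and 25 of the 225 genes, PKP3 itself included, were at or below its value. The part of the region in the change of PKP3 was not tested.

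**Figure D3:**
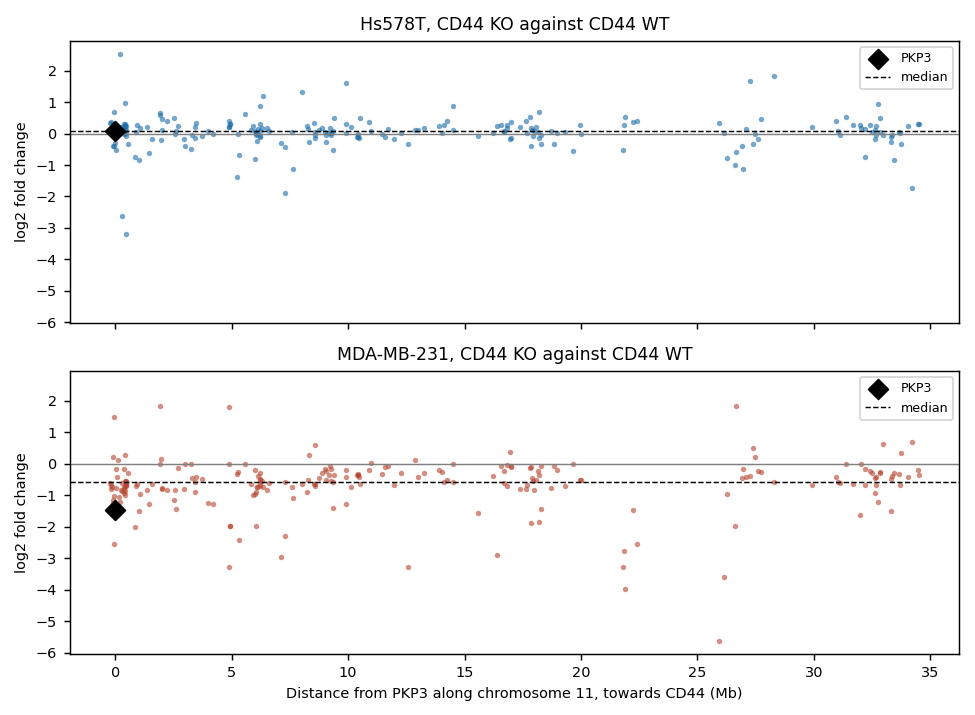
Log2 fold change of CD44 KO against CD44 WT of 225 tested genes telomeric of CD44 on chromosome 11, by distance from PKP3 in Mb, in Hs578T (top) and MDA-MB-231 (bottom), with PKP3 as a diamond and the median as a dashed line. The MDA-MB-231 points lie mostly below 0, around their median of -0.57, with PKP3 lower at -1.45.

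DSP was below WT in all KO libraries of both lines without passing the test. It had 163 to 207 CPM in Hs578T WT and 122 to 159 CPM in KO libraries (-0.38 ± 0.13, adjusted p = 0.057). In MDA-MB-231 it had 222 to 297 CPM in WT and 175 to 207 CPM in KO libraries (-0.41 ± 0.13, adjusted p = 0.055). JUP, shared by desmosomes and adherens junctions, had log2 fold changes of -1.02 ± 0.38 and -0.87 ± 0.32, with overlapping groups in both lines. EVPL, which caps the plaque in stratified epithelia, had -1.05 ± 0.40 on 3 to 11 counts a library in Hs578T and -0.35 ± 0.11 in MDA-MB-231 (67.3 to 86.4 against 57.3 to 61.2 CPM, adjusted p = 0.070). PKP4, also found at adherens junctions, changed by -0.14 ± 0.11 and 0.00 ± 0.11, and PPL by 0.13 ± 0.19 and -0.25 ± 0.35. PKP1, of stratified epithelia, had at most 4 counts a library.

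The claudin CLDN1, a barrier claudin, had the largest rise of the 31 genes in Hs578T. Its WT libraries had 1.11, 0.411 and 0.423 CPM and its KO libraries 10.7, 14.5 and 8.53 CPM. In MDA-MB-231 the order was reversed, with 13.4, 12.1 and 12.7 CPM in WT and 3.47, 3.18 and 1.68 CPM in KO libraries. No groups overlapped. CLDN1 rose by 4.06 ± 0.34 in Hs578T (adjusted p = 1.4e-06) and fell by 2.16 ± 0.27 in MDA-MB-231 (adjusted p = 0.00013), on the log2 scale. The KO level of Hs578T, 11.3 ± 3.01 CPM, came near the WT level of MDA-MB-231, 12.7 ± 0.644 CPM. The difference between the changes, 6.21 ± 0.44 (adjusted p = 7e-07), was called without any 1 of the 12 libraries.

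CLDN4, a sealing claudin of simple epithelia, had 12.6, 12.9 and 7.96 CPM in Hs578T WT and 4.49, 4.13 and 4.52 CPM in KO libraries. The groups did not overlap, and CLDN4 fell by 1.35 ± 0.22 on the log2 scale (adjusted p = 0.00057). MDA-MB-231 had 38.9, 35.3 and 34.3 CPM in WT and 25.7, 36.6 and 42.4 CPM in KO libraries, which overlapped (-0.05 ± 0.17). The difference of -1.30 ± 0.28 (adjusted p = 0.0078) was called with 3 of the 12 libraries left out in turn and lost with the other 9 (adjusted p up to 0.0299), and it was also lost with the replicate block by the number of the title (adjusted p = 0.057) or by library number (adjusted p = 0.015). CLDN7 changed by 0.02 ± 0.32 and 0.25 ± 0.22, CLDN12 by 0.12 ± 0.13 and 0.27 ± 0.13, and CLDN15 by 0.19 ± 0.20 and -0.19 ± 0.20, none called. CLDN3 (4 to 12 counts in MDA-MB-231 libraries and none in Hs578T), CLDN6 (at most 4 counts) and CLDN11 (at most 5) were below the filter.

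TJP3, the scaffold ZO-3, had 6.17, 6.75 and 3.05 CPM in Hs578T WT and 0.722, 1.85 and 1.02 CPM in KO libraries. WT and KO did not overlap, and TJP3 fell by 2.1 ± 0.34 on the log2 scale (adjusted p = 0.00066), a call kept without any 1 library. In MDA-MB-231 it had 1 to 4 counts a library. Its 20 tested neighbours in the genome had a median of -0.19 in Hs578T, 18 of them negative. Cingulin (CGN), which binds ZO proteins, had 3.30 to 6.66 CPM in Hs578T WT and 2.28 to 3.92 CPM in KO libraries (-0.87 ± 0.27, adjusted p = 0.044), and -0.12 ± 0.23 in MDA-MB-231. Its relative CGNL1 changed by -0.69 ± 0.53 and 0.44 ± 0.27. TJP1 had -0.35 ± 0.35 and -1.27 ± 0.38 (adjusted p = 0.047 in MDA-MB-231), on 6 to 30 counts a library and with the limit given above.

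The polarity genes were called in MDA-MB-231 only. PARD3, the scaffold of the Par complex, had 74.8, 80.4 and 85.4 CPM in WT and 123, 118 and 109 CPM in KO libraries there, without overlap, and rose by 0.54 ± 0.09 on the log2 scale (adjusted p = 0.0013). The call was lost with each line fitted alone (adjusted p = 0.0135) and with the replicate block by the number of the title (adjusted p = 0.022). The 20 tested neighbours of PARD3 on chromosome 10 had a median of 0.64, with 1 of them negative, and the part of the region in its change was not tested. In Hs578T PARD3 had 67.5, 80.0 and 74.8 CPM in WT and 78.9, 86.1 and 84.0 CPM in KO libraries (0.16 ± 0.09, adjusted p = 0.26). PARD6B, its partner in the complex, had 7.97, 10.8 and 11.4 CPM in MDA-MB-231 WT and 6.01, 5.83 and 4.74 CPM in KO libraries. WT and KO did not overlap, and PARD6B fell by 0.85 ± 0.18 on the log2 scale (adjusted p = 0.0072), a call kept in 4 of the 12 fits that left out 1 library (adjusted p up to 0.038). The PARD6B call was also lost with each line fitted alone (adjusted p = 0.032). Both replicate blocks lost it too, by the number of the title (adjusted p = 0.134) and by library number (adjusted p = 0.016). In Hs578T its WT libraries had 2.43, 2.06 and 2.29 CPM and its KO libraries 1.6, 2.16 and 2.05 CPM (-0.22 ± 0.23). Neither change of a polarity gene was shown to differ between the lines (adjusted p = 0.078 and 0.20). CRB3, the epithelial crumbs protein, had at most 6 counts a library.

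**Figure D4:**
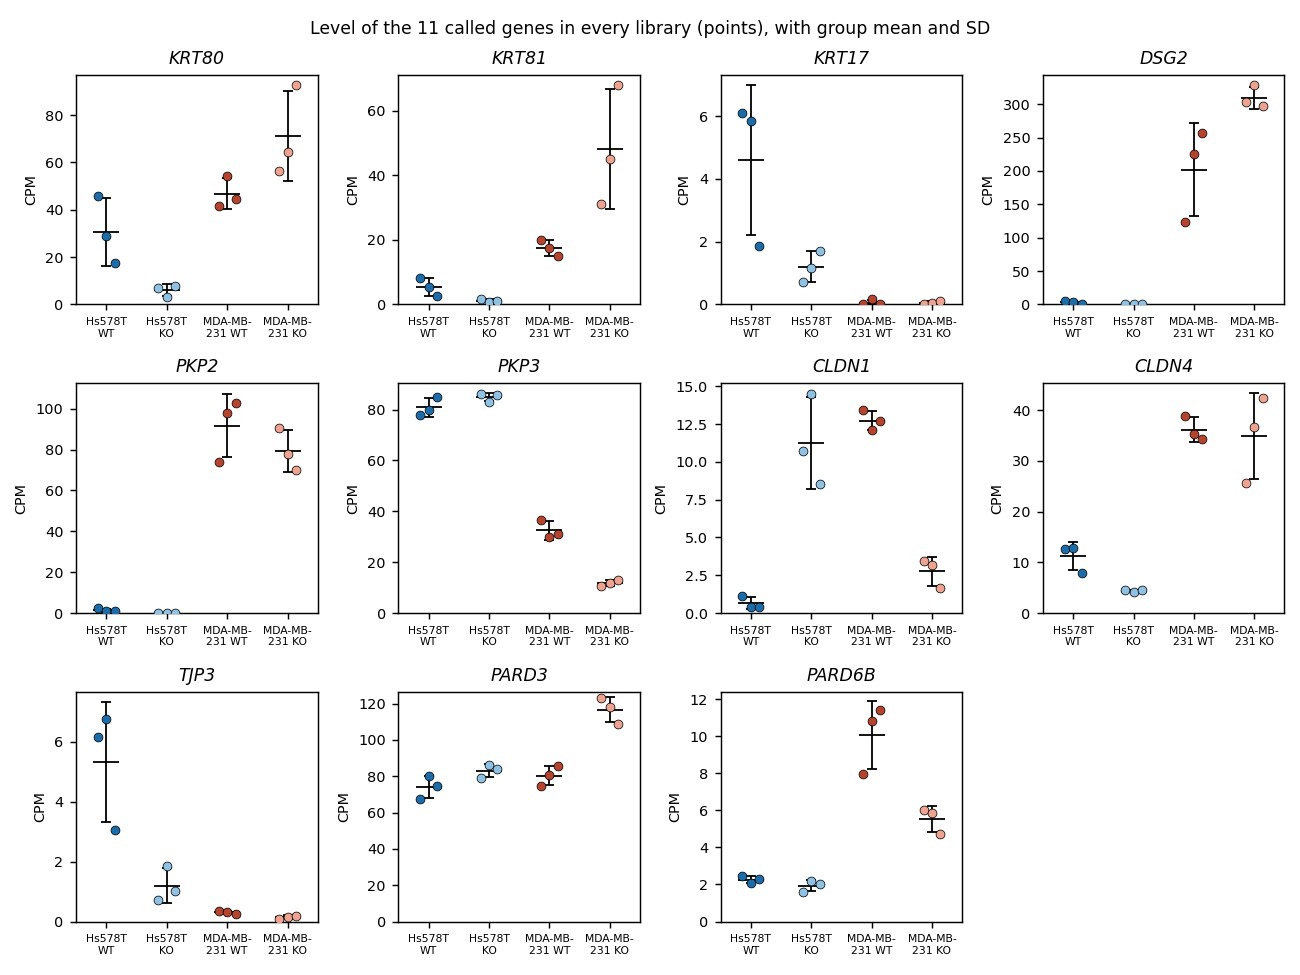
CPM (axes from 0) of the 11 genes called in either line, 1 point a library, with the mean (dash) and SD (bar, cut at 0) of each group of 3. CLDN1 and KRT81 move in opposite directions in the lines, and the third WT point of Hs578T is the lowest WT point in each of the 7 genes called lower there.

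Counted by overlap instead of the test, 13 of the 31 tested genes had all KO libraries of Hs578T below all WT libraries, and 2 had them above, beside 18.6% and 18.7% of all genes tested. The 13 include KRT5, which passed the filter only through the Hs578T WT libraries, so nothing is drawn from its place among them. In MDA-MB-231 these were 9 and 6 of the 31, beside 13.7% and 11.8%. In Hs578T the WT libraries of the 7 genes that fell also shared an order. Replicate 3 was the lowest WT library for all 7, and replicate 1 the highest for 5 and replicate 2 for the other 2. Without replicate 3 the count of called genes in Hs578T was 10, KRT15 and CGN being added, and without WT replicate 1 or 2, or KO replicate 1 or 3, it was 5. The part of this order in the calls was not tested.

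The change was called as different between the lines for 7 of the 31 genes, beside 4.12% of all genes tested (1.79% lower and 2.33% higher). These were KRT80, KRT81, DSG2, PKP2 and CLDN4, lower, and PKP3 and CLDN1, higher, in Hs578T relative to MDA-MB-231. Promoters were available for 26 of the 43 genes, and for DSG2, CLDN1 and CLDN4 of these 7. They are RefSeq sequences on GRCh38.p14, from 250 bases before to 50 bases after a start site, and are shown because these genes changed differently in the lines. Capitals mark the E-box CAGGTG, the letters bound by ZEB and SNAI repressors of epithelial genes, and the AP-1 letters TGANTCA, both searched on either strand and not overlapping.

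DSG2 (chr18:31497927-31498226, plus strand): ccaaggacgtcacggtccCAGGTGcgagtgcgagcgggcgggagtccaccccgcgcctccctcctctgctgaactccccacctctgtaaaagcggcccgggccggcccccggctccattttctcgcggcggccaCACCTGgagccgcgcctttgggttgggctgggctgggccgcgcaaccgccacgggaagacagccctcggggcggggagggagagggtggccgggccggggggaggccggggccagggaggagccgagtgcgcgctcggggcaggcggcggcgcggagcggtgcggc
CLDN1 (chr3:190322397-190322696, minus strand): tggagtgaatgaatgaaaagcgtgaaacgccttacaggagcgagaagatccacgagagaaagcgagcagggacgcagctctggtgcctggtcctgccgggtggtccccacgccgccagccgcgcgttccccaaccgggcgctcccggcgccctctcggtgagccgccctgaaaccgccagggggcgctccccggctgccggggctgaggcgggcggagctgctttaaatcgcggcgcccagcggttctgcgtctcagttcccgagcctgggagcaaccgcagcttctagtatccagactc
CLDN4 (chr7:73830746-73831045, plus strand): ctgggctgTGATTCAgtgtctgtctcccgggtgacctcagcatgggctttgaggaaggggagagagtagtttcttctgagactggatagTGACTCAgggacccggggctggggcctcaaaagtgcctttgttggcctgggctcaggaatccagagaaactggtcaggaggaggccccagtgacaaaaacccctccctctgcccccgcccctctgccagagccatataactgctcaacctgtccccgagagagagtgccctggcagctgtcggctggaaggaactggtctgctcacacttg

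DSG2 held 2 E-boxes, starting 232 and 116 bases before the start site, and no AP-1 match. CLDN4 held 2 AP-1 matches and no E-box, and CLDN1 neither. Over all 35116 promoters of the same length 20.6% held the E-box and 7.71% the AP-1 letters, and of the 36 promoters of the 43 genes 13 and 2 did. The 36 promoters came from 26 genes, and OCLN counts more than once among the 13. Their median share of G and C was 65.8%, against 58.7% over all promoters, and its part in these counts was not tested. The matches are a description of the letters. ZEB1, ZEB2 and SNAI2 were tested in both lines and not called, though all their fitted changes were positive. Their log2 fold changes were 0.21 ± 0.16, 0.49 ± 0.20 and 0.50 ± 0.14 in Hs578T. MDA-MB-231 had 0.44 ± 0.16, 0.40 ± 0.21 and 0.57 ± 0.15. Every KO library lay above every WT library of its line for ZEB1 and SNAI2. For ZEB2 this held for MDA-MB-231 only, as its Hs578T groups overlapped. Of all genes tested, 18.7% lay apart in this direction in Hs578T and 11.8% in MDA-MB-231. SNAI2 came nearest to the threshold (adjusted p = 0.028 for Hs578T, 0.027 for MDA-MB-231). Any part of these factors in the changes of DSG2 and the other genes was not tested.

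Other genes of the same structures were read from lists of their families, and their counts stand beside 3.86% lower and 3.64% higher among all genes tested in Hs578T and 2.65% lower and 1.97% higher in MDA-MB-231. Of 37 other keratins 3 were tested, and 2 were called lower in Hs578T, KRT75 (-2.63 ± 0.32, adjusted p = 0.00022) and KRT71. KRT71 had 35 counts in WT and 4 in KO libraries of Hs578T and none in MDA-MB-231, and passed the filter only through the group where it was high, so nothing is drawn from its call. KRT75 had 14.7, 7.90 and 7.28 CPM in WT and 1.52, 1.54 and 1.79 CPM in KO libraries. Among 8 other desmosome genes 4 were tested, and PERP, a membrane protein of the desmosome, fell in Hs578T (-0.68 ± 0.11, adjusted p = 0.00043). Among 45 other tight junction and polarity genes 25 were tested. In Hs578T 2 fell (LSR and ILDR2, both of the tricellular junction) and 3 rose (JAM2, PARD6G and PRKCZ). In MDA-MB-231 the count was 1 of 25, a share near that of all genes: LLGL2, a basolateral polarity protein, fell by 1.31 ± 0.15 on the log2 scale (adjusted p = 7.1e-05). JAM2, a junctional adhesion molecule, had 0.694, 1.23 and 1.35 CPM in WT and 11.6, 14.9 and 12.5 CPM in KO libraries of Hs578T (3.58 ± 0.27, adjusted p = 5.3e-07).

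Of 21 genes of the epithelial state 13 were tested, with 2 lower (GRHL1, TP63) and 1 higher (ESRP1) in Hs578T, beside 3.86% and 3.64% of all genes, and 2 lower (ESRP2, GRHL1) in MDA-MB-231, beside 2.65%. GRHL1, a grainyhead transcription factor of epithelia, was the only one called in both, by -0.80 ± 0.14 in Hs578T (adjusted p = 0.0013) and -1 ± 0.19 in MDA-MB-231 (adjusted p = 0.0031). TP63, the master factor of basal epithelium, had 20.4, 13.7 and 9.65 CPM in Hs578T WT and 0.562, 1.23 and 0.682 CPM in KO libraries (-4.08 ± 0.36). With at most 0.0811 CPM in MDA-MB-231, it passed the filter through the Hs578T WT libraries alone, where it was high. Nothing is therefore drawn from its call, nor from its place among the 2 lower genes of Hs578T. Of the 19 other intermediate filament and plakin genes 13 were tested, and VIM rose in both lines by 0.38 ± 0.08 and 0.43 ± 0.08 (adjusted p = 0.0039 and 0.0025), while NES fell in Hs578T and SYNM rose in MDA-MB-231. The 8 markers of the mesenchymal-like state were all tested, with VIM and TWIST1 higher in Hs578T and VIM in MDA-MB-231. Among all genes tested 3.64% were called higher in Hs578T and 1.97% in MDA-MB-231. TWIST1, a repressor of epithelial genes, had 2.08, 1.40 and 0.931 CPM in Hs578T WT and 24.5, 23.4 and 28 CPM in KO libraries (4.07 ± 0.24, adjusted p = 1.1e-06), and no count in MDA-MB-231.

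Markers of other cells were read beside these results. Of the 5 luminal markers 4 were tested, and GATA3 and FOXA1 rose in MDA-MB-231 by 1.05 ± 0.21 and 0.98 ± 0.20 (adjusted p = 0.0046 and 0.0062). Among all genes tested 1.97% were called higher in MDA-MB-231 and 3.64% in Hs578T. Of the 3 blood markers PTPRC was tested and rose in Hs578T, from 0.277, 0.576 and 0.254 to 4.81, 3.21 and 3.33 CPM, the group through which it passed the filter, while CD14 and CD68 had at most 0.494 CPM in any Hs578T library. At these low levels the CD68 values of the Hs578T KO libraries still all lay above those of the WT libraries. Of the 2 endothelial markers, both tested, neither was called, with PECAM1 at 10.6 to 14.8 CPM in Hs578T and 1.37 to 3.85 CPM in MDA-MB-231 and CDH5 at most 2.47 CPM. The part of these cells in the changes above was not tested.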

How the data were processed

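RNA of the 12 samples was made into stranded mRNA libraries by the authors and sequenced as paired 50-base reads on 1 lane. They aligned it to GRCh38 with HISAT2 (2.1.0) and counted fragments in GENCODE version 28 genes with featureCounts (1.6.2), with a mapping quality of at least 10, and deposited the raw counts of each gene as whole numbers. Here the counts were tested in edgeR (4.0.16, R 4.3.3) by the quasi-likelihood test with TMM scaling, 4 group means and all 12 libraries in 1 fit. Genes entered at 300 nt of exon or longer and over 1 CPM in 2 or more libraries, p-values were adjusted by Benjamini-Hochberg over 15836 genes, and a gene was called at 0.01. The standard error is the size of the log2 fold change over the square root of its F. CPM values are per TMM-scaled library size and TPM values are per exonic length over all genes. Floors are 3 counts over a group, and intervals are exact at 95%.

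Every gene called in either line or between the lines is given in each library, the other tested genes by their ranges and those below the filter by their counts. The genes and lists were chosen with earlier results of these data known. One CD44 WT MDA-MB-231 column carried a name that the labels give to replicates 2 and 3 alike, so that library has its group and no number. Gene names came from GENCODE version 44 (57799 of 58381 genes). The alternatives were DESeq2 (1.42.0), RLE factors, other filters, each line fitted alone, a threshold of 0.05, replicate blocks and each library left out. The test was tried on simulated data first.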

Additional observations from a re-analysis of the deposited data

Results flagged for a closer look

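For 7 genes the CD44 KO change was not the same in the lines by the interaction test of edgeR, with differences given as Hs578T minus MDA-MB-231 on the log2 scale. CLDN1 differed by 6.21 ± 0.44 (adjusted p = 7e-07), up in all 3 Hs578T KO libraries and down in all 3 of MDA-MB-231. PKP3 differed by 1.52 ± 0.14 (adjusted p = 9.3e-06). KRT81 differed by -3.63 ± 0.53 (adjusted p = 0.00051) and KRT80 by -2.99 ± 0.45 (adjusted p = 0.00058). DSG2 differed by -4.44 ± 0.84 (adjusted p = 0.0035), on 10 counts in the KO libraries of Hs578T. The fitted value of PKP2, -6.89 ± 1.21 (adjusted p = 0.0032), depends on the prior count and is no bound, because its Hs578T KO libraries had no count. CLDN4 differed by -1.30 ± 0.28 (adjusted p = 0.0078). No group was tested for a single distant library, since each held 3.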

How the results depend on the processing

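The called genes kept their direction under each alternative in which they were tested. For MDA-MB-231 the 5 called genes became 10 with no filter on low counts, where KRT80, KRT18, DSG2, DSP and JUP were added, 3 with each line fitted alone and 2 with the replicate block by the number of the title. That replicate block had fewer samples, since it left out the WT library with no number and KO replicate 2, and the cause of the other shifts was not tested. With 1 library left out in turn, 5 to 10 genes were called in Hs578T (8 with all), 3 to 5 in MDA-MB-231 (3 without WT replicate 3 or KO replicate 2 or 3), 4 to 7 for the difference between the lines (7 with all, 4 without Hs578T KO replicate 3) and 21 to 24 between the CD44 WT cells (23 with all). DESeq2 called 8, 6 and 7 in the 3 KO comparisons. The KRT17 call in Hs578T was lost with that line fitted alone (adjusted p = 0.011), as was that of PKP2, which could not be tested there.

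The replicate numbers did not pair the samples: the correlations of deviations were -0.0566, 0.0222 and -0.0957 in Hs578T and 0.00793 and 0.164 in MDA-MB-231. With the replicate block by the number of the title 7, 2 and 6 genes were called in Hs578T, in MDA-MB-231 and for the difference, and with the replicate block by library number 8, 4 and 6. The calls lost were KRT17 in Hs578T, KRT81, PARD3 and PARD6B in MDA-MB-231 and CLDN4 for the difference under the first, and PARD6B and CLDN4 under the second. By that second number every Hs578T pair, but not every MDA-MB-231 pair, correlated best within itself, at 0.0315 to 0.134 in Hs578T. With FPKM in place of TPM 24 genes reached 1 in some group, and with CPM per kilobase of the reference transcript, an alternative chosen after seeing the data, 26 did, against 32. Genes with a few counts a library, such as DSG2 and PKP2 in Hs578T, are limited by depth.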
